A study of Mus musculus with 6 samples.

Results

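The CD4intCD8+ stage of CD8 T cell development in the thymus was compared with the stages on either side of it, to find genes whose expression was transiently high or transiently low there. All 6 arrays of the series were used: 2 of CD4intCD8+ thymocytes, 2 of double-positive (DP) thymocytes, the CD4+CD8+ immature cells that come before, and 2 of CD8 single-positive (CD8SP) thymocytes, which come after. All 3 populations carried the same genotype, homozygous for the N15 T cell receptor transgene, Rag2-deficient and H-2b, so that no group is free of the transgene and every T cell carries 1 receptor specificity. Per the labels, 6 mice matched for age and sex, 5 to 6 weeks old, provided the cells, which were sorted by surface CD4 and CD8 in 2 independent experiments. Which animals gave which array is not labelled; a p-value here reflects array-to-array spread, which may be technical.

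A thymocyte whose receptor binds self-peptide on MHC weakly enough to survive is positively selected. With an MHC class I-restricted receptor such as N15 it loses CD4 and becomes a CD8 single-positive cell. DP thymocytes are small, largely resting cells that express the Rag recombinase, and receptor signals during selection switch off Rag and start the programme of the mature T cell. A dividing cell turns on DNA replication genes in S phase and the genes of G2 and mitosis afterwards, so that the order of these groups is a common measure of the state of the cycle.

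The quantity tested was the log2 intensity at CD4intCD8+ minus the mean of DP and CD8SP, called the contrast below. A positive contrast does not by itself make a peak, because a gene that rises from DP to CD4intCD8+ and then stays level also lies above the mean of the ends. Each gene was therefore split into a first step, CD4intCD8+ minus DP, and a second step, CD8SP minus CD4intCD8+. A called gene was a peak or trough when the steps had opposite signs, each with an unadjusted p under 0.05, and a plateau when its second step missed that threshold and at least 50% of the first step was kept at CD8SP. It counted as moving in one direction when both steps had the same sign and each passed that threshold, and as late when only the second did. The fit was made with limma across 10916 genes with the replicate number of the title as a block, and values after ± are standard errors of log2 differences from it.

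Among the transcripts that define the sort, Cd4 and the CD8 chains separated DP from the later stages but not CD4intCD8+ from CD8SP. Cd4 gave intensities of 351 and 515 at DP, -33.0 and 11.8 at CD4intCD8+ and -65.8 and -68.6 at CD8SP, so that its signal was near or below 0 at both later stages. Itgae, the CD103 integrin chain and a CD8SP marker, separated all 3 stages, with 61.3 and 41.6, then 368 and 278, then 1211 and 1029.8. Array medians lay between 24.9 and 25.7. The ratio of the 3' to the 5' actin probe set, which rises as RNA or its copies shorten, was 3.47 on CD4intCD8+ replicate 2 and between 1.98 and 2.62 on the other 5 arrays, and the Gapdh ratio was 1.99 there against 1.37 to 1.53. Of 76 entries in 9 marker lists for other cell types, 32 passed the filter, none of them from the natural killer list, and Ikzf2 of the CD4 T cell list was the only one called. Summed marker intensities were higher at CD8SP than at DP for double-negative thymocytes (1042 and 1038 at DP, 1217 and 1237 at CD4intCD8+, 1722 and 1640.4 at CD8SP), where Dtx1 and Notch1 gave most of the signal. Dendritic cell markers summed to 709 and 869, then 862 and 898, then 924 and 1312, and Cd74 alone gave 29.5 and 33.1, then 88.8 and 100.1, then 109.5 and 143. The 12 macrophage and granulocyte markers summed to 824 and 875, then 523 and 536, then 373 and 431. Of these F13a1 gave 525 and 566, then 199.5 and 168, then 48.3 and 42.3, and the other 11 summed to 299 and 309, then 324 and 368, then 324 and 388. The 6 B cell markers summed to 206 and 243, then 241 and 160, then 296 and 288, where the low value came from Ms4a1 on CD4intCD8+ replicate 2. The part of these markers in the results was not tested. In sorted bulk populations, fewer cells of a type and less RNA per cell cannot be told apart.

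At an adjusted p under 0.05, 136 genes (1.25% of those tested) were higher at CD4intCD8+ than the mean of the ends and 79 (0.724%) were lower. The 136 comprised 51 peaks (0.467%), 75 early rises that reached a plateau (0.687%) and 10 genes that moved in one direction. The 79 comprised 35 troughs (0.321%), 33 early falls that reached a plateau (0.302%), 8 that moved in one direction and 3 whose change came late. Together these were 215 genes, or 1.97%. Most contrasts were small: 6 of the 215 reached 1 on the log2 scale, and the smallest was 0.28 in size, against a median standard error of 0.13 over all genes. Just inside the threshold lay Nkg7 (adjusted p 0.0496) and Larp7 (0.0497), and just outside it Ints2 (0.0501) and Naa50 (0.0507).

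The calls of single genes were close to what the design could resolve. A stricter call that asks for both steps at once, with adjustment over all genes, gave 0 peaks and troughs by limma, with 332 genes at an unadjusted p under 0.05. Without the replicate block 1 gene was called, Nr4a3. The calls of the 215 also needed both CD8SP arrays, since they were lost when either of these was left out. Without CD4intCD8+ replicate 2, the array with the high actin ratio, 49 genes were higher and 36 lower, and 44 of the 215 were still called. The sign of the contrast was kept by all 215 in each of these fits. Leaving out the block cannot change a contrast in this balanced design, and the other fits reuse arrays that chose the genes. Of the 215, 98 had another probe above the filter, and 144 of 156 such probes gave a contrast of the same sign.

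**Figure D1:**
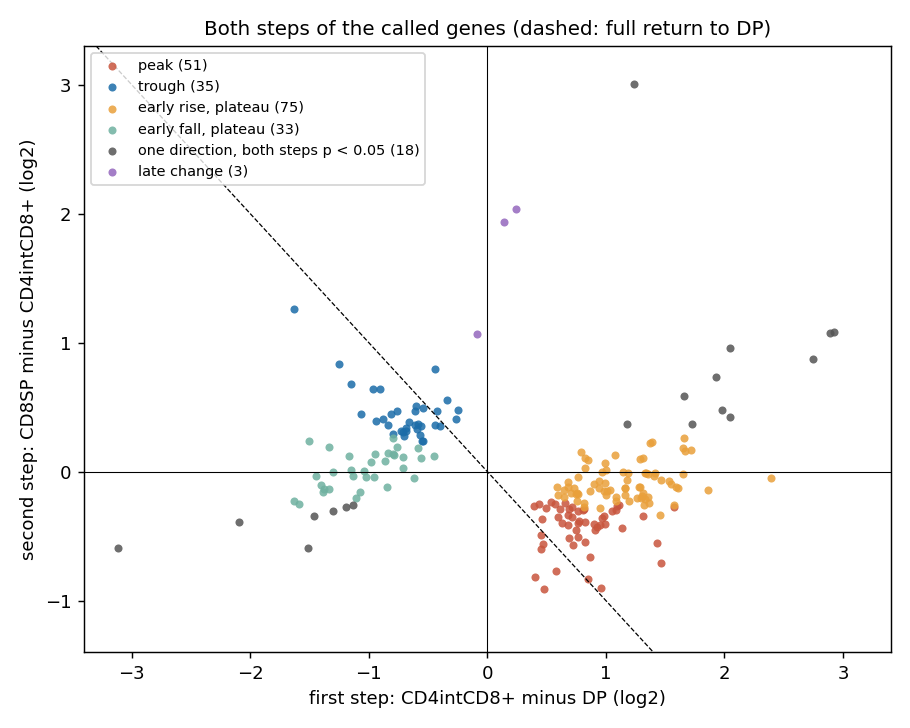
Each point is 1 of the 215 called genes, with its first step (CD4intCD8+ minus DP, log2) on the horizontal axis and its second step (CD8SP minus CD4intCD8+, log2) on the vertical axis, coloured by pattern; the dashed line marks a complete return to the DP level. Peaks lie at the lower right and troughs at the upper left, early rises and falls lie along a second step of 0. The 18 genes with both steps past the threshold in one direction lie in the other quadrants, as do 2 late genes and 15 plateau genes of each direction whose second step had the sign of the first.

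The peaks rose by a median of 0.76 (log2) at the first step and changed by a median of -0.39 at the second, so that a median of 51.1% of the first step was left at CD8SP, with a range from -104% to 82.5%. All 51 were highest at CD4intCD8+ among the arrays of each replicate number, a pattern that 12.4% of all tested genes showed, and in 28 both CD4intCD8+ arrays lay above the other 4, as in 5.84% of all genes. These shares describe the calls, since the same arrays made them. In 6 of the 51 peaks the second step also passed adjustment over all genes, and in 49 the first step did. Over all genes the first step was called higher in 13.3% and lower in 10.1%, and the second in 1.26% and 0.824%.

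The list of G2 and mitosis genes held more peaks than any other list. Of 34 tested members of that list, 8 were called, and all 8 were peaks: Birc5, Bub1, Ccnb2, Cenpa, Mad2l1, Pbk, Tpx2 and Ttk. Among all genes 1.25% were called higher and 0.467% were peaks. The contrast was positive in 34 of 34 members, with an unadjusted p under 0.05 in 34, against 10.7% of all genes that passed that threshold in the same direction. The second step was negative in 34 of 34, with an unadjusted p under 0.05 in 18, against 49.96% and 6.81% of all genes. The list's median contrast was 0.50, its median first step 0.59 and its median second step -0.37, against 0.01, 0.01 and 0.00 over all tested genes, and 44.9% of the first step was kept.

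Ttk, the kinase that starts the spindle assembly checkpoint, had the largest contrast of the peaks. Its intensities were 30.6 and 40.5 at DP, 76.3 and 151 at CD4intCD8+ and 55.8 and 72.5 at CD8SP. Both CD4intCD8+ arrays were above the other 4, although replicate 1 was only just above the higher CD8SP array. The contrast was 1.09 ± 0.17 (limma adjusted p 0.0206), with a first step of 1.47 and a second of -0.71. Bub1, a checkpoint kinase at the kinetochore, measured 141 and 144 at DP, 269 and 381 at CD4intCD8+ and 203 and 272 at CD8SP, where CD8SP replicate 2 overlapped CD4intCD8+ replicate 1. Its contrast was 0.79 ± 0.12 (adjusted p 0.0206). A dimmer probe of each gene gave contrasts of 0.21 (Ttk) and 0.31 (Bub1).

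Mad2l1, the checkpoint protein that holds back the anaphase-promoting complex, gave 319 and 368 at DP, 581 and 767 at CD4intCD8+ and 441 and 565 at CD8SP, without overlap. Its contrast of 0.68 ± 0.09 (adjusted p 0.0164) was called in 10 of the 18 alternative settings. Tpx2, a spindle assembly factor that activates Aurora A, gave 156 and 177, then 224 and 397, then 159 and 259, so that the stages overlapped although each replicate number peaked at CD4intCD8+; the contrast was 0.68 ± 0.14 (adjusted p 0.0366). Spc25, a subunit of the Ndc80 kinetochore complex that is in none of the lists, went from 354 and 418 to 528 and 773 and back to 387 and 476. Its arrays did not overlap, and it was among the peaks with the most complete return, with steps of 0.72 and -0.57 and a contrast of 0.64 ± 0.10 (adjusted p 0.0206).

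Other mitotic genes had the same signs with less support. Mki67, the proliferation marker, measured 702 and 757 at DP, 957 and 1276 at CD4intCD8+ and 751 and 1159.6 at CD8SP, and its contrast of 0.42 ± 0.10 missed the threshold (adjusted p 0.0617). Plk1 and Aurka, mitotic kinases named here after their values were seen, had contrasts of 0.30 ± 0.13 (adjusted p 0.237) and 0.30 ± 0.13 (adjusted p 0.25). Over the list the contrast ranged from 0.22 to 1.09.

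The size and the calls of this pattern moved with the arrays used. Among the arrays of replicate number 1 the list's median contrast was 0.35, and among those of number 2, which include the array with the actin ratio of 3.47, it was 0.68. With the block, leaving out 1 CD4intCD8+ array, as below, gives the contrast of the other replicate number again and is no separate check of it. The median second step was -0.34 and -0.42, and it was negative in 33 and 34 of the 34 genes. Without CD4intCD8+ replicate 2, 2 members were called, the median contrast was 0.35 and the median second step -0.21. Without DP replicate 2 there were 2 as well (median contrast 0.37), without DP replicate 1 there were 29 (0.62), without CD4intCD8+ replicate 1 26 (0.68), and without either CD8SP array 0 (0.43 and 0.54). The contrast was positive in 34 of 34 in each of these fits. With the actin ratio as a covariate beside the block, 0 were called and 26 of 34 contrasts were positive, with a median of 0.13. With that covariate and no block, 0 were called and 19 of 34 contrasts were positive. The median contrast was then 0.04, with median steps of 0.01 and -0.06, so that little of the pattern was left. That ratio is partly confounded with the stage, being higher at CD4intCD8+ within each replicate number, and its part in the result was not tested.

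Promoter sequences from RefSeq (GRCm38.p6) were matched for 28 of the 35 listed G2 and mitosis genes, and the 250 bases before the start were searched on both strands for the elements known from such promoters. These were the CCAAT box (CCAAT), the cell cycle homology region or CHR (TTTGAA) and the E2F site (TTTCGCGC or TTTGGCGC), and none of these letter strings contains another. The promoters of 3 peaks and of 1 replication gene with a plateau are shown because the results turn on these 2 groups, and Pola1 was chosen as the called replication gene of largest contrast among those with an E2F match; capitals mark matches on either strand. Bub1 (chr2:127831860-127832109, minus strand) and Ttk (chr9:83834439-83834688, plus strand) each held 2 CCAAT boxes. Ccnb2 (chr9:70421555-70421804, minus strand), the cyclin B2 gene, held 3 CCAAT boxes with first bases 87, 54 and 21 before the start, and 1 CHR further upstream. Pola1 (chrX:93632156-93632405, minus strand), the catalytic subunit of DNA polymerase alpha, held 1 E2F site and 1 CCAAT box.
Ttk: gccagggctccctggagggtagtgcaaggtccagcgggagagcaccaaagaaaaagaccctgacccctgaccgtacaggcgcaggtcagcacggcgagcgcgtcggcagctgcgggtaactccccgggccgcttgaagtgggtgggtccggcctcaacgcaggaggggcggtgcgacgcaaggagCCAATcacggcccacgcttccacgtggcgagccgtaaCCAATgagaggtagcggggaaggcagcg
Bub1: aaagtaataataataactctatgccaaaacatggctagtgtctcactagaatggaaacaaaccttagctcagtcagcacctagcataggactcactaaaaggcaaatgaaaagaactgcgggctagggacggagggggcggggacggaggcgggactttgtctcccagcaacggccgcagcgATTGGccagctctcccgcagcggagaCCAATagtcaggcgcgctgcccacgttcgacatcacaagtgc
Ccnb2: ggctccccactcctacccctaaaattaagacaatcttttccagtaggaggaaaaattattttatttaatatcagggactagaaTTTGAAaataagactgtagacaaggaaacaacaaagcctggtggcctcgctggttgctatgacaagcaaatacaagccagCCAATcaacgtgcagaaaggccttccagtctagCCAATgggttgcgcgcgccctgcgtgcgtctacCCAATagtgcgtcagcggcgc
Pola1: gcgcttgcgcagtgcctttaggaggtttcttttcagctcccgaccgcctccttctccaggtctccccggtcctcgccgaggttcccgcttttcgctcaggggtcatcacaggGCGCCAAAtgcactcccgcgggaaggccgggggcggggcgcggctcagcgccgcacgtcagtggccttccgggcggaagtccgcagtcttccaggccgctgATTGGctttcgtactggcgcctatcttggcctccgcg

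A CCAAT box was found in 21 of the 28 G2 and mitosis promoters (75.0%) and in 20 of 33 DNA replication promoters (60.6%), against 36.2% of the promoters of all tested genes and 34.5% of all 27025 promoters. A CHR was found in 32.1% of the G2 and mitosis promoters and 9.09% of the replication promoters, against 10.3% of tested genes. An E2F site was found in 3.57% and 15.2%, against 1.37%. Among called genes as a whole the CCAAT box was in 21 of 40 peak promoters (52.5%), 28 of 63 plateau rises (44.4%) and 8 of 27 troughs (29.6%). The E2F site was in 0 of 40 peaks, 6 of 63 plateau rises (9.52%), 0 of 27 troughs and 1 of 24 plateau falls (4.17%). The Mad2l1 promoter window held none of the 3 elements. A match is a description of the letters, and these shares were not tested.

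DNA replication and S phase genes rose at the same first step but mostly stayed up. Of 38 tested members, 18 were called higher, 14 as early rises with a plateau and 4 as peaks. Among all genes these shares were 1.25%, 0.687% and 0.467%. The contrast was positive in 37 of 38, and in 32 with an unadjusted p under 0.05, against 10.7% of all genes in that direction. The median first step was 0.99 and the median second step -0.06, which leaves 95.05% of the rise at CD8SP. The second step was negative in 25 of 38, with an unadjusted p under 0.05 in 4, and positive below that threshold in 1. Of all genes the second step was negative in 49.96%, and it passed that threshold in 6.81% below 0 and in 8.19% above. Set beside the mitotic list, the first step was larger and the return smaller; the difference between the lists was not tested.

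Cdc6, which loads the replicative helicase onto origins, went from 63.4 and 84.7 at DP to 194 and 406 at CD4intCD8+ and stood at 207 and 312 at CD8SP. The DP arrays were clear of the rest, while CD4intCD8+ and CD8SP overlapped. Its contrast was 1.00 ± 0.14 (limma adjusted p 0.0164), its first step 1.86, and its second step -0.14 with a 95% interval from -0.50 to 0.21. Gins2, a subunit of the replicative helicase complex, had 49.2 and 61.5, then 139 and 246, then 140.2 and 237, so that the later stages could not be told apart. Its contrast was 0.83 ± 0.13 (adjusted p 0.0227) and its second step -0.02.

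Rfc4, part of the clamp loader, measured 153 and 168 at DP, 359 and 469 at CD4intCD8+ and 320.0 and 391 at CD8SP; its contrast was 0.77 ± 0.10 (adjusted p 0.0164). Pola1 measured 66.4 and 59.9, then 141 and 239.9, then 146 and 213, with a contrast of 0.76 ± 0.17 (adjusted p 0.0476). In both genes the DP arrays lay apart and the 2 later stages overlapped. The 4 replication genes called as peaks, named after their values were seen, were Orc6, Pcna, Prim1 and Rrm2. Of these, Pcna, the sliding clamp, had no overlap, with 2768 and 3554 at DP, 4002 and 4519 at CD4intCD8+ and 3339 and 3829.6 at CD8SP. Its contrast was 0.34 ± 0.06 (adjusted p 0.0241).

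As for the mitotic list, the values were larger among the arrays of number 2, with a median contrast of 0.66 against 0.34. Leaving out CD4intCD8+ replicate 2, as below, gives the number 1 contrast again. The median second step was 0.05 within number 1 and -0.12 within number 2, and it was negative in 16 and 30 of the 38 genes. Without CD4intCD8+ replicate 2, 7 members were called, the median contrast was 0.34 and the median second step 0.11. With the actin ratio as a covariate beside the block, 0 were called and the median contrast was 0.20. Without the block, that covariate gave 0 called and a median contrast of 0.15, with 30 of 38 positive.

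**Figure D2:**
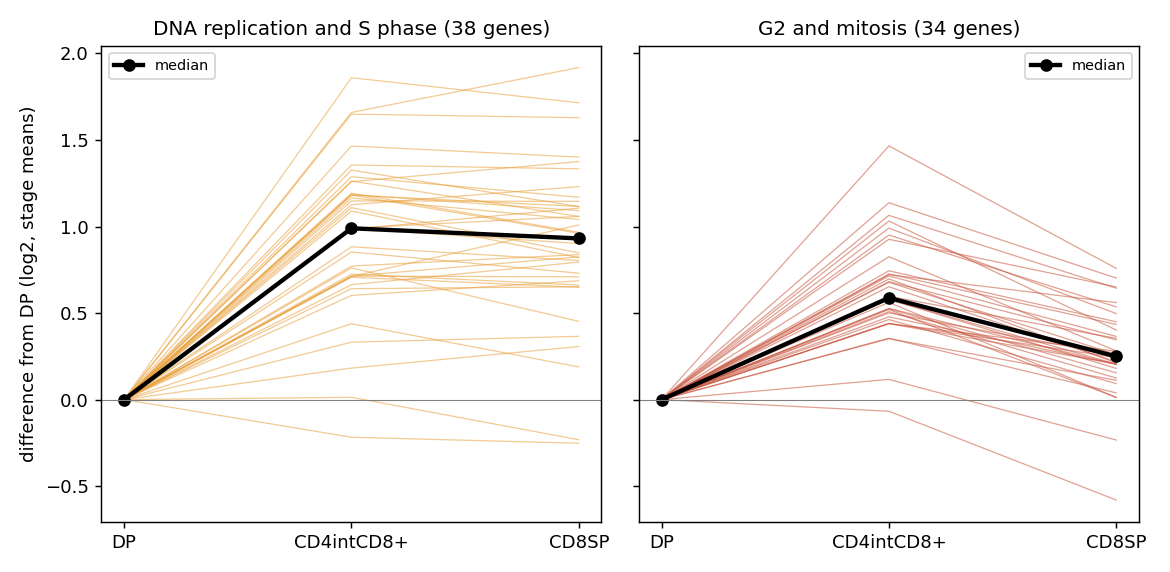
Each thin line is 1 gene, drawn from the stage means as its log2 difference from DP at CD4intCD8+ and CD8SP, for the 38 tested DNA replication and S phase genes and the 34 tested G2 and mitosis genes; the black line joins the medians. The replication genes kept a median of 95.05% of their rise at CD8SP, and the mitotic genes 44.9%.

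Outside the listed cell cycle genes, the peaks named by height were of mixed function. Abi2, an adaptor of the WAVE actin-remodelling complex, measured 118 and 111 at DP, 169.9 and 178 at CD4intCD8+ and 97.4 and 102 at CD8SP. The replicates were close and the CD4intCD8+ pair was clear of the other 4 arrays, with a contrast of 0.67 ± 0.11 (limma adjusted p 0.028). Another Abi2 probe above the filter had a contrast of 0.11. P2rx7, the ATP-gated channel of the P2X family, measured 129 and 104, then 146 and 183, then 83.4 and 84.6; it ended below DP, with steps of 0.48 and -0.91 and a contrast of 0.69 ± 0.14 (adjusted p 0.0378).

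2700099C18Rik had 33.2 and 45.2 at DP, 55.8 and 98.8 at CD4intCD8+ and 33.7 and 45.5 at CD8SP. It returned to its starting level, with steps of 0.85 and -0.83 and a contrast of 0.84 ± 0.17 (adjusted p 0.0367). Cip2a, an inhibitor of protein phosphatase PP2A, had 94.7 and 94.3, then 138 and 196, then 97.6 and 133, without overlap, and a contrast of 0.64 ± 0.13 (adjusted p 0.0448). Apoo, a subunit of the mitochondrial cristae complex MICOS, was raised nearly equally in both replicates, with 120.3 and 145, then 233 and 274, then 162 and 207. Its contrast was 0.68 ± 0.11 (adjusted p 0.0208), called in 10 of the 18 alternative settings.

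Clstn2, a calsyntenin, Tnnt1, the slow skeletal muscle troponin T, and BC035044 completed the 10 highest peaks, with contrasts of 0.60, 0.47 and 0.51 and adjusted p between 0.0366 and 0.0476. A dimmer Clstn2 probe had a contrast of -0.18. Tnnt1 returned to its DP level, with 176 and 197, then 249 and 266, then 177 and 186, and its CD4intCD8+ arrays were clear of the rest. Among the fixed lists, peaks were also found for Ikzf2, a transcription factor of the Ikaros family, Itgb3, the integrin beta 3 chain, and the proteasome subunits Psma1 and Psma4.

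Ikzf2 measured 580.4 and 469 at DP, 833 and 722 at CD4intCD8+ and 712 and 598 at CD8SP, with the CD4intCD8+ pair highest and a contrast of 0.41 ± 0.08 (adjusted p 0.0371). Psma4 went from 694 and 875 to 1262 and 1202 and then to 1060.0 and 1017, again without overlap, with a contrast of 0.45 ± 0.09 (adjusted p 0.0444). For Itgb3 and Psma1 the call rested on the brightest probe. When a gene's probes were averaged, the contrasts were -0.0888 (limma adjusted p 0.859) and -0.0740 (limma adjusted p 0.887). The other probes were dim, with mean intensities of 11.2 for Itgb3 and 3.31, 3.98 and 30.5 for Psma1, all under the filter of 30.8. Lyz1, a lysozyme of myeloid cells, was also called as a peak and is named after its values were seen. Its 6 arrays overlapped, with 26.0 and 64.4 at DP, 43.3 and 165 at CD4intCD8+ and 25.9 and 70.3 at CD8SP, and replicate 2 was the higher array at each stage.

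**Figure D3:**
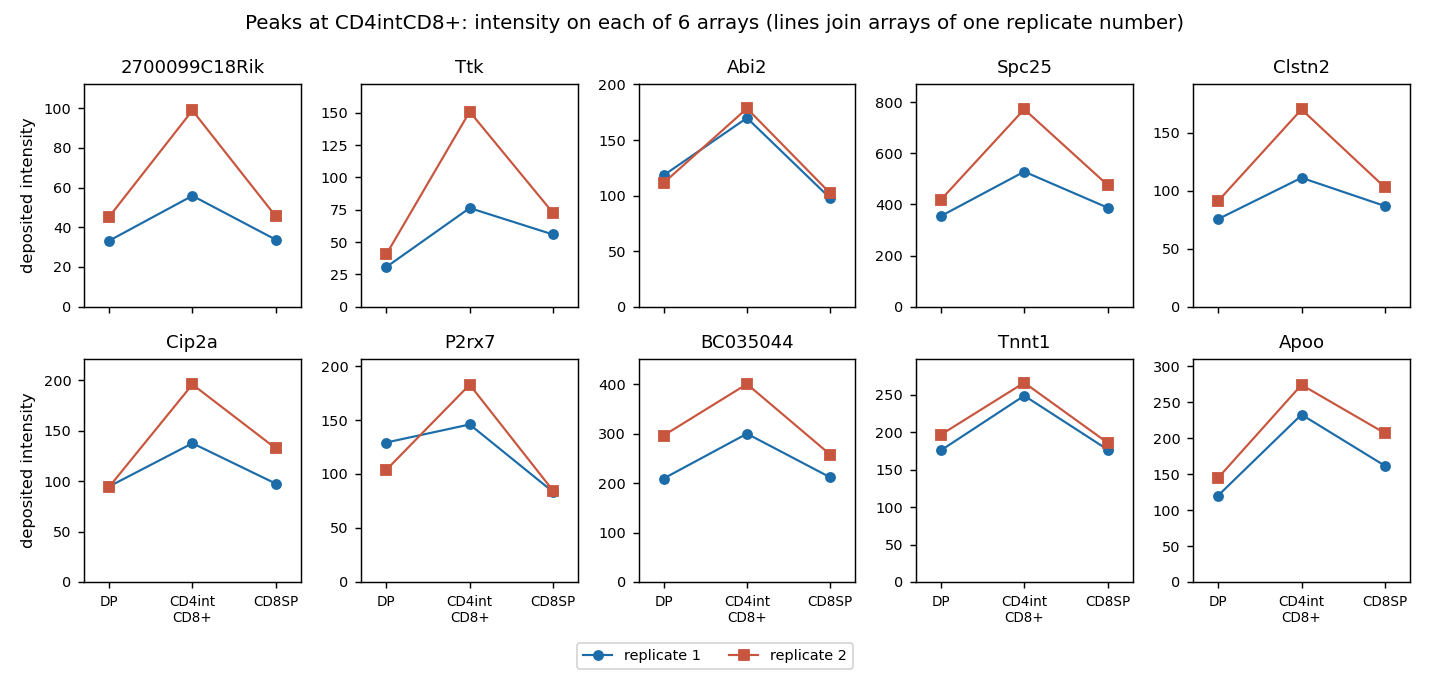
Deposited intensity (linear axis from 0) on each of the 6 arrays for the 10 highest peaks with no overlap between CD4intCD8+ and the other stages; lines join arrays of the same replicate number. In each panel both CD4intCD8+ points lie above the other 4, and for Ttk, 2700099C18Rik, Spc25, Clstn2 and Cip2a replicate 2 is well above replicate 1.

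The 35 troughs fell by a median of 0.66 (log2) at the first step and regained a median of 0.39 at the second, which left 40.5% of the fall at CD8SP. In all 35 CD4intCD8+ was lowest among the arrays of each replicate number, as in 11.4% of all genes, and in 26 both CD4intCD8+ arrays lay below the other 4, as in 6.29%. Of the gene lists, that of the T cell receptor complex and proximal signalling held the only trough, Dgka.

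Il17ra, the shared receptor chain for interleukin 17 cytokines, was the most even of the named troughs. It measured 545 and 541 at DP, 364 and 346 at CD4intCD8+ and 525 and 492 at CD8SP. The replicates of each stage lay close together and the CD4intCD8+ pair was well below the rest, with a contrast of -0.56 ± 0.09 (limma adjusted p 0.0209) and steps of -0.60 and 0.51. Prex1, an exchange factor for Rac, returned in the same way, with 437 and 401, then 316 and 258, then 406 and 404, and a contrast of -0.52 ± 0.10 (adjusted p 0.0336).

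Dgka, the diacylglycerol kinase that removes a second messenger of receptor signalling, measured 1621 and 1527 at DP, 1235 and 1078 at CD4intCD8+ and 1549.9 and 1421 at CD8SP. There was no overlap, and its contrast was -0.40 ± 0.07 (adjusted p 0.026). In the other 26 genes of its list the contrast was positive in 3, the median was -0.14, and 11 had an unadjusted p under 0.05 below 0, against 9.27% of all genes. Lat and Cd3e, an adaptor and a receptor chain named after their values were seen, had contrasts of -0.31 (adjusted p 0.0725) and -0.33 (adjusted p 0.0768).

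Slc49a4, a lysosomal membrane transporter, gave 107 and 105 at DP, 51.8 and 51.5 at CD4intCD8+ and 89.3 and 78.5 at CD8SP. The CD4intCD8+ arrays were nearly identical and clear of the rest, with a contrast of -0.80 ± 0.13 (adjusted p 0.0227). Kdm4b, a histone H3 lysine demethylase, gave 157 and 157, then 97.3 and 83.9, then 144 and 113, and a contrast of -0.62 ± 0.12 (adjusted p 0.0366). Plec, the cytoskeletal linker plectin, gave 398 and 466, then 344 and 289, then 588 and 516, and so ended above its DP level, with a contrast of -0.62 ± 0.11 (adjusted p 0.0308).

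Cdcp1, a transmembrane glycoprotein, had the largest contrast of all called genes, -1.45 ± 0.27 (adjusted p 0.0315), but its CD4intCD8+ arrays disagreed. They gave 10.9 and 44.6, against 80.4 and 88.6 at DP and 58.5 and 69.9 at CD8SP, and the contrast was -2.15 among number 1 arrays and -0.75 among number 2. Casq2, calsequestrin, was likewise dim, with 51.1 and 74.1, then 27.4 and 18.2, then 43.5 and 45.7 (contrast -1.04 ± 0.22, adjusted p 0.0427). Both genes were dim, and log2 differences at such levels depend on the pseudocount of 5.84.

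Mfsd4a, a major facilitator family transporter, and Ypel3 fell in both replicates with unequal size. Mfsd4a measured 385 and 229, then 193 and 87.6, then 227 and 198, with a contrast of -0.91 ± 0.16 (adjusted p 0.0291). Ypel3 measured 323 and 342, then 227 and 154, then 290.2 and 229, with a contrast of -0.63 ± 0.13 (adjusted p 0.0428). Neither overlapped with the other stages. Vldlr, the very low density lipoprotein receptor, had a contrast of -0.78 ± 0.17 (adjusted p 0.0473), but a dimmer probe above the filter gave 0.27.

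Among troughs named after their values were seen, Txnip, an inhibitor of thioredoxin and of glucose uptake, measured 1466 and 1326 at DP, 949 and 785 at CD4intCD8+ and 1174 and 989.6 at CD8SP. Its arrays did not overlap, the contrast was -0.50 ± 0.07 (adjusted p 0.0172), and a dimmer probe gave -1.87. Pik3ip1, an inhibitor of phosphoinositide 3-kinase, gave 928 and 839.8, then 571 and 366, then 679.5 and 534, with overlap between CD4intCD8+ and CD8SP and a contrast of -0.67 ± 0.10 (adjusted p 0.0209).

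**Figure D4:**
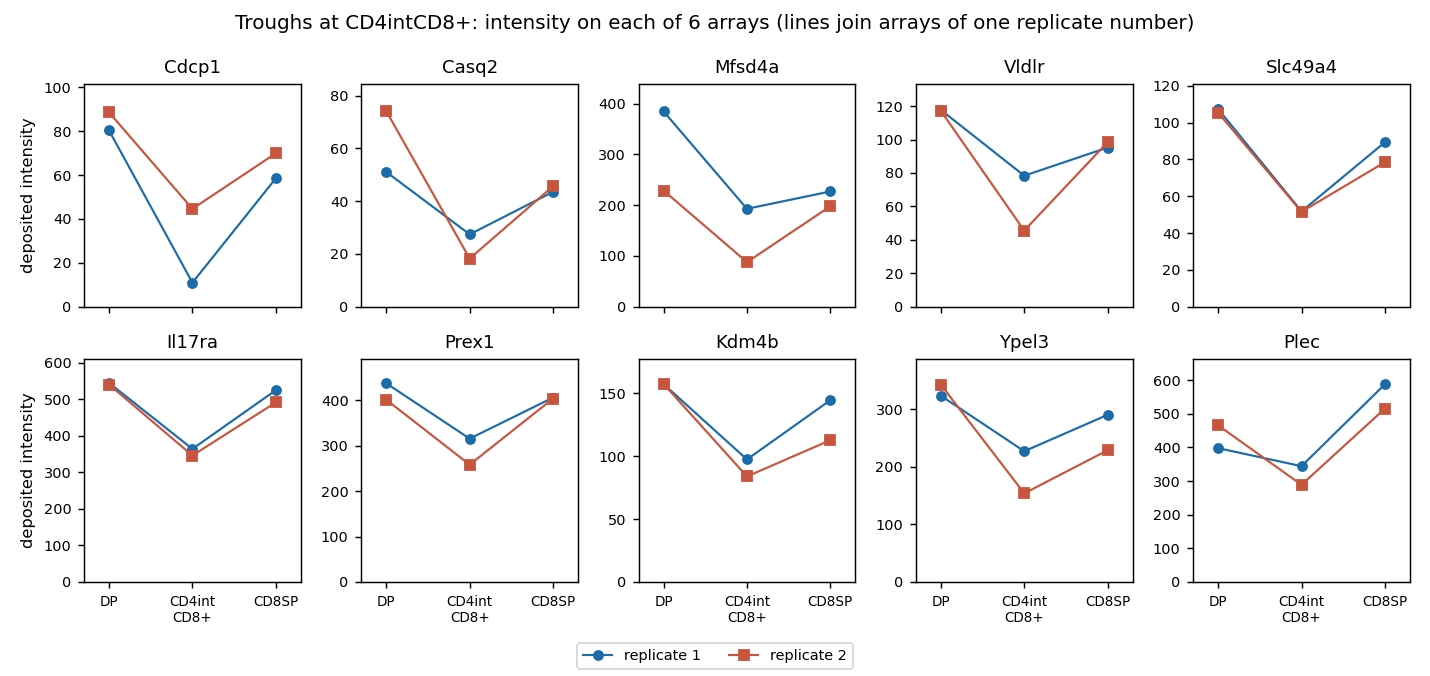
Deposited intensity (linear axis from 0) on each of the 6 arrays for the 10 deepest troughs with no overlap between CD4intCD8+ and the other stages; lines join arrays of the same replicate number. Both CD4intCD8+ points are the lowest in each panel; Il17ra, Slc49a4 and Prex1 have close replicates, whereas Cdcp1, Mfsd4a and Vldlr do not.

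The 75 early rises with a plateau gained a median of 1.16 (log2) at the first step and changed by a median of -0.12 at the second. A median of 89.4% of the rise was kept, with a range from 66.9% to 119%. For 13 of the 75 the 95% interval of the second step still included a return of 50% of the rise, so that a partial peak could not be told from a plateau in those genes. In 7 of the 75 both CD4intCD8+ arrays lay above the other 4, as in 5.84% of all genes.

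Nr4a3, a nuclear receptor that T cell receptor signals induce, had the largest contrast of them and the most stable call. It measured 33.7 and 31.6 at DP, 209 and 185 at CD4intCD8+ and 191 and 189 at CD8SP, so that it rose once and stayed there. The contrast was 1.22 ± 0.12 (limma adjusted p 0.00819), the first step 2.39 and the second -0.05, with a 95% interval from -0.35 to 0.25. Other Nr4a3 probes had smaller contrasts, 0.58 for one above the filter and 0.33 for one below it. The gene was called in 14 of 18 alternative settings, but not when its probes were averaged. Its relative Nr4a1 showed the same shape, with 461 and 307, then 755 and 565, then 693 and 577, and just missed the threshold (contrast 0.42 ± 0.09, adjusted p 0.0538).

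Nr4a3 was the only one of 25 tested T cell receptor response genes to be called, where 1.25% of all genes were called higher. Egr3, a zinc finger factor of the same response, continued upward, with first and second steps of 1.16 and 0.55 and a contrast of 0.31 ± 0.13 (adjusted p 0.23). Egr1, Egr2 and the activation marker Cd69 had contrasts of 0.04, -0.07 and 0.09. Over the list the median contrast was 0.05. Pdcd1, the inhibitory receptor PD-1, was the only called gene of 17 costimulatory and inhibitory receptors, with 61.0 and 59.2 at DP, 132 and 151 at CD4intCD8+ and 126 and 131 at CD8SP. Both CD4intCD8+ arrays were highest by a small margin, and the contrast was 0.64 ± 0.12 (adjusted p 0.0326).

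Gzma, the granule protease granzyme A, was already at its later level at the intermediate stage. It measured 978 and 852 at DP, 2434 and 2949 at CD4intCD8+ and 2345 and 2672 at CD8SP, with a contrast of 0.82 ± 0.09 (adjusted p 0.00819) and a second step of -0.10. Cenph, a kinetochore protein, Zfp367, a zinc finger protein, and Syce2, a synaptonemal complex protein, had contrasts of 0.91 ± 0.15, 0.90 ± 0.14 and 0.87 ± 0.13, with adjusted p between 0.0195 and 0.0255. Syce2 gave 92.7 and 129, then 241 and 494, then 235 and 425, where the DP arrays lay apart and the later stages overlapped.

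Lipid genes on the lists gave 2 calls, both plateaus. Idi1, an isomerase of the cholesterol pathway, measured 84.4 and 86.9 at DP, 182 and 281 at CD4intCD8+ and 183 and 274 at CD8SP, with a contrast of 0.68 ± 0.14 (adjusted p 0.0378). Fads2, a fatty acid desaturase, measured 36.4 and 47.0, then 79.6 and 168, then 71.9 and 129.9, with a contrast of 0.81 ± 0.16 (adjusted p 0.0366). Each was the only called gene of its list, of 20 and 13 tested, where 1.25% of all genes were called higher. Tmem97, an endoplasmic reticulum protein tied to cholesterol handling, had a contrast of 0.85 ± 0.17 (adjusted p 0.0366), and Hspe1, the mitochondrial chaperonin cofactor, 0.32 ± 0.07 (adjusted p 0.0473).

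The 33 early falls with a plateau lost a median of 1.02 (log2) at the first step and kept 98.8% of that loss, with a median second step of 0.01. The interval of the second step included a return of 50% in 5 of them. Il4ra, the interleukin 4 receptor chain, and Socs1, the inhibitor of cytokine signalling, fell together. Il4ra measured 388 and 500.0 at DP, 160.1 and 144 at CD4intCD8+ and 154 and 209 at CD8SP, with a contrast of -0.87 ± 0.13 (limma adjusted p 0.0206). Socs1 measured 125 and 95.9, then 44.6 and 35.5, then 49.5 and 43.0, with a contrast of -0.76 ± 0.14 (adjusted p 0.0332). In both, DP stood clear above the other stages, which overlapped.

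Of 23 tested cytokine receptor and Socs genes these 2 and Ifngr1, the interferon gamma receptor chain, were called lower and 0 higher. Among all genes 0.724% were called lower and 1.25% higher. Cd8b1, the CD8 beta chain, measured 3601 and 3814 at DP, 2400.4 and 1790.1 at CD4intCD8+ and 2448 and 2144 at CD8SP, with a contrast of -0.49 ± 0.09 (adjusted p 0.0291). For Cd8a, the alpha chain, the contrast was -0.35 ± 0.13 (adjusted p 0.166), and it was -0.01 among number 1 arrays and -0.69 among number 2. Prrt1, Vamp1, a vesicle SNARE, Slco3a1, an organic anion transporter, and Kremen1, a Dickkopf receptor, had contrasts between -0.71 and -0.65. Kremen1 showed the plainest plateau, with 249 and 272, then 102 and 102, then 94.9 and 109.6, and a second step of 0.00.

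In 18 called genes both steps passed the threshold with the same sign, and the contrast measured unequal steps. Ccnd2, cyclin D2 of the G1 phase, measured 123 and 87.0 at DP, 1046 and 647 at CD4intCD8+ and 1906 and 1614 at CD8SP, with no overlap between any stages. It rose by 2.92 and then by 1.09, and the contrast of 0.92 ± 0.10 (limma adjusted p 0.00819) was called in 13 of 18 alternative settings. Cd7, a T cell surface protein, measured 39.2 and 35.2, then 284 and 283, then 629 and 437, with a contrast of 0.94 ± 0.13 (adjusted p 0.0164). Trpm1, a cation channel, rose from 8.94 and 2.77 to 92.9 and 64.7 and then to 215 and 135; its DP values lay near the pseudocount.

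Rag1, the recombinase subunit, showed the mirror image. It measured 1046 and 1054 at DP, 101 and 134 at CD4intCD8+ and 57.8 and 97.9 at CD8SP, falling by 3.11 and then by 0.59, with a contrast of -1.26 ± 0.14 (adjusted p 0.00819). Bcl2l1, the survival factor Bcl-xL, and Ets2, an Ets family factor, fell at both steps too, with contrasts of -0.56 ± 0.12 (adjusted p 0.0451) and -0.46 ± 0.08 (adjusted p 0.0291). With Rag1 and Cd8b1 these made 4 of 20 tested DP stage genes called lower, against 0.724% of all genes, and 0 were higher. The list's median contrast was -0.25, and 12 members had an unadjusted p under 0.05 below 0, against 9.27% of all genes. Fbxl12, an F-box protein, measured 836 and 927, then 191 and 213, then 152 and 153, with a contrast of -0.85 ± 0.10 (adjusted p 0.00819).

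Klrd1, the natural killer receptor chain CD94, was lower than the mean of the ends although it rose at both steps, because most of its rise came late: 13.9 and 13.7 at DP, 37.0 and 44.0 at CD4intCD8+ and 275 and 485 at CD8SP, with a first step of 1.23 and a second of 3.0. Its contrast was -0.89 ± 0.18 (adjusted p 0.0378). Nkg7, a cytotoxic granule protein of the same list, rose more at the first step (2.04) than at the second (0.96). Gene by gene, the cytotoxic list therefore held an early plateau (Gzma), an early-weighted rise (Nkg7) and a late-weighted rise (Klrd1).

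The 3 late genes were Btbd11, Samhd1, a dNTP hydrolase, and Fam241a. Samhd1 measured 59.3 and 43.7 at DP, 68.3 and 55.4 at CD4intCD8+ and 226 and 322 at CD8SP, with a first step of 0.25 (unadjusted p 0.255) and a second of 2.03. Its contrast was -0.89 ± 0.18 (limma adjusted p 0.0366). Fam241a measured 200.2 and 199, then 194 and 182, then 412 and 390.4. In these genes DP and CD4intCD8+ lay close and only CD8SP stood apart.

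The other lists held few called genes, but the lists are short, and 1.25% of all genes were called higher and 0.724% lower. These counts therefore do not show a shortage of calls. Bcl2l11, the death factor Bim, was highest on both CD4intCD8+ arrays, with 248 and 215 at DP, 380.0 and 300.0 at CD4intCD8+ and 266 and 262 at CD8SP, but missed the threshold (contrast 0.44 ± 0.11, limma adjusted p 0.0606). Of 22 tested maturation and egress genes 0 were called higher and 1 lower, Ifngr1. Its intensities were 1223 and 1176 at DP, 477 and 490.0 at CD4intCD8+ and 364 and 419 at CD8SP. Of 28 interferon-stimulated genes 1 was called, Ifit1, with 76.3 and 23.9, then 272 and 131, then 361 and 196, and a contrast of 0.75 ± 0.14 (adjusted p 0.0318); its replicate 1 array was the higher at every stage. By limma 0 of 15 MHC class I genes were called, with 3 higher and 0 lower at an unadjusted p under 0.05, and 0 of 8 Gimap genes, with 1 higher and 3 lower and a median contrast of -0.18. That unadjusted threshold was passed by 10.7% of all genes above 0 and 9.27% below.

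The sizes differed between the replicate numbers. All 215 called genes had the same sign of contrast among the arrays of number 1 and number 2. The call itself favours this, since the fit takes disagreement between the numbers as spread, so it is no separate replication. The contrast was larger in size for number 2 in 39 of 51 peaks, 25 of 35 troughs, 63 of 75 plateau rises and 22 of 33 plateau falls, or 161 of 215 in all, and in 58.7% of all tested genes. The median contrast of the peaks was 0.51 for number 1 and 0.69 for number 2. Number 2 includes the CD4intCD8+ array with the actin ratio of 3.47. Without that array 11 of 51 peaks, 6 of 35 troughs, 14 of 75 plateau rises and 6 of 33 plateau falls were still called, and 10 of the 215 were when the actin ratio was added to the block as a covariate.

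**Figure D5:**
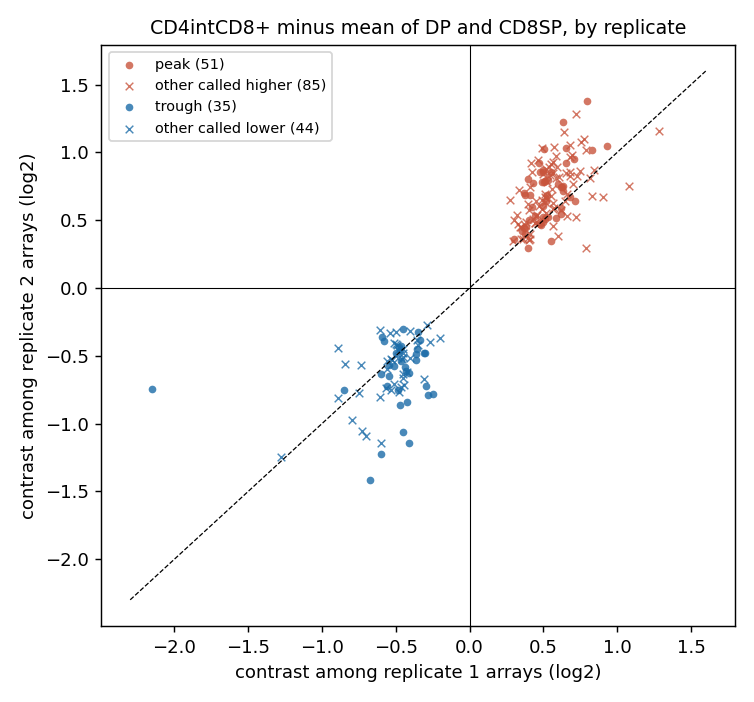
Contrast of each of the 215 called genes (CD4intCD8+ minus the mean of DP and CD8SP, log2) among the replicate 1 arrays, on the horizontal axis, and the replicate 2 arrays, on the vertical axis; the dashed line marks equal values. Every gene has the same sign on both axes, which the call favours, and 161 of the 215 are larger in size for replicate 2. Cdcp1 is the point at -2.15 and -0.75.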

How the data were processed

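RNA of 6 sorted thymocyte samples was labelled with biotin and hybridised to 1-colour arrays, per the labels. The authors deposited 1 linear intensity per probe and array; their software, scaling and background treatment are not given in the sources used here. Between 2.78% and 4.33% of values per array lay below 0, so a background signal had been subtracted, and low values are poorly determined. Negative values were raised to 0 before taking log2(intensity + 5.84), the 10th percentile of positive values being the pseudocount; log2 differences understate the change of dim genes. Of 45037 probes, 34945 named 1 gene, 932 several and 9160 none; names came from the platform annotation. Each of 18193 genes was taken from its brightest probe, and 7277 under the 40th percentile of the mean (intensity 30.8) were left out.

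All arrays entered 1 limma 3.58.1 fit (R 4.3.3; lmFit, eBayes with an intensity trend; 2 residual and 8.31 prior degrees of freedom), with stage and replicate number as terms and Benjamini-Hochberg adjustment over 10916 genes. Arrays of the same replicate number deviated together, with correlations across genes of 0.26, 0.21 and 0.30 between the stages, and the labels name 2 independent experiments. The scripts were tested on simulated data. The question, the 36 gene lists and the naming rule were chosen with earlier results of these data known. Named genes are the 10 highest peaks and 10 deepest troughs without overlap, the 6 largest of each plateau class, the 3 largest of each other class, up to 4 called genes per list, and 28 anchor genes; others are marked. Alternatives changed the block, pseudocount, filter, probe rule, trend, normalization, threshold and arrays used.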

Additional observations from a re-analysis of the deposited data

How the results depend on the processing

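Counts of called genes, given as higher, lower, peaks, troughs, plateau rises and plateau falls, were 136, 79, 51, 35, 75 and 33. Without the replicate block they were 1, 0, 0, 0, 1 and 0, and with the block as a random effect (duplicateCorrelation) 2, 1, 0, 0, 2 and 0. Without the intensity trend all 6 were 0 by limma, with 1903 genes at an unadjusted p under 0.05. With the mean of all probes they were 59, 30, 19, 18, 36 and 7, and the contrast changed sign for 3 genes, Itgb3 (-0.0888), Psma1 (-0.0740) and Dpy19l1 (-0.10). With a filter at the 60th percentile they were 297, 203, 92, 73, 186 and 108, with fewer genes tested. Without a filter, lower genes were 51, peaks 32 and plateau falls 20, and with quantile normalization lower genes were 52 and troughs 22. The actin ratio as a covariate gave 25, 16, 17, 10, 5 and 5 with the block and 3, 3, 0, 2, 1 and 1 without it. Of the 86 peaks and troughs reported, 2 were still called as such with the block and 1 without it. With the block and that ratio the lowest limma adjusted p was 5.3e-61, against 0.00819 in the fit reported. At an adjusted p under 0.01 they were 4, 2, 1, 0, 2 and 0. Other causes were not tested. Leaving out 1 array gave 0 to 390 higher, 0 to 283 lower, 0 to 170 peaks, 0 to 187 troughs, 0 to 226 plateau rises and 0 to 81 plateau falls. The call that asks for both steps after adjustment gave 0 in the fit reported, 8 and 2 with the actin ratio (with and without the block), and 0 to 50 when 1 array was left out.

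All 215 genes kept the sign of their contrast in each setting except the mean of all probes (208 of 211) and the actin ratio without the block (211 of 215). Settings that changed only the block, the trend or the threshold left each contrast unchanged, so its sign was fixed there. The remaining settings reuse the arrays that chose the genes. With 2 arrays per stage, signal near background and 2 residual degrees of freedom limit what single calls can show. The fits that left out an array, and the fit with both the block and the actin ratio, had fewer residual degrees of freedom still. Higher counts in those fits, including counts of the call that asks for both steps, therefore do not show firmer calls.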

Other observations

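Several housekeeping groups had small, mostly positive contrasts and 0 to 2 calls. Of 31 proteasome genes tested, 22 had a positive contrast, 9 an unadjusted p under 0.05 above 0 and 1 below, against 10.7% and 9.27% of all genes; Psma1 and Psma4 were the called members. Of 30 genes of the respiratory chain and ATP synthase, 27 had a positive contrast with a median of 0.11, 8 had an unadjusted p under 0.05 and 0 were called by limma. Of 40 ribosome biogenesis genes, 34 had a positive contrast and 16 an unadjusted p under 0.05, with a median contrast of 0.22 and a median second step of 0.21. The called member was Nhp2, a subunit of box H/ACA ribonucleoproteins, with 317 and 335 at DP, 717 and 773 at CD4intCD8+ and 913 and 1015 at CD8SP (contrast 0.40 ± 0.08, limma adjusted p 0.0382).

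Transcription factors of thymocytes leaned the other way: of 45 tested, 12 had a positive contrast, 10 an unadjusted p under 0.05 below 0 and 2 above, against 9.27% and 10.7% of all genes, and the calls were Ikzf2 above and Ets2 below. None of these lists was tested as a set.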
